A study of Rattus norvegicus with 8 samples.

Results

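The voltage-gated and transient receptor potential (TRP) channel genes examined here were the protein-coding genes whose symbols begin with Kcn, Scn, Cacn, Hcn, Clcn, Trpc, Trpm, Trpv or Piezo. The tables of this series held 61 such genes among 9025 genes in all, of which 31 were potassium channel genes, 7 sodium channel genes, 9 calcium channel genes and 14 other channel genes. RNA came from neonatal rat ventricular cardiomyocytes, primary heart muscle cells of Sprague Dawley rats 2 to 3 days old, and was sequenced from 8 libraries, 2 in each of 4 groups. The groups were ischemia with eugenol, ischemia with DMSO, normoxia with eugenol, and normoxia with DMSO, called below ischemia eugenol, ischemia DMSO, normoxia eugenol and normoxia DMSO. Ischemia was a culture condition with 1% oxygen and 5% carbon dioxide, with no other change of medium named in the labels. Eugenol is a phenolic compound of clove oil given at 10 µM, DMSO is its solvent, and each treatment lasted 24 h. The labels name no transgene or other allele, and they do not say whether replicate libraries were made from separate isolations of cells. The p-values therefore measure spread among these libraries, which may be technical.

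Heart muscle cells fire when sodium channels open and depolarise the membrane, calcium channels then admit the calcium that starts contraction, and several kinds of potassium channel bring the voltage back and hold it at rest. Each pore-forming subunit works with accessory subunits that set how many channels reach the surface and how fast they open and close. Pacemaker (HCN) channels carry an inward current at negative voltages, TRP channels are cation channels opened by lipids, heat, chemicals or calcium, and Piezo channels are opened by stretch. The naming rule also took in genes that are not voltage-gated channels: inward rectifier (Kcnj) and tandem-pore (Kcnk) potassium channels, the endosomal and lysosomal chloride and proton exchangers Clcn3 and Clcn7, and Trpc4ap, an adaptor of a ubiquitin ligase named for its binding to a TRP channel.

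The 5 deposited tables were cut at an unadjusted p of 0.05 in their pair of groups, so a gene without a row in a table has no value for that comparison here. RefSeq (GRCr8) has 178 protein-coding symbols of these names, and 117 of them had no row in the tables used here. Among those 117 were Cacna1c, the main pore of the cardiac L-type calcium channel, Kcnj2, the main pore of the resting inward rectifier current, and Kcnd2, Kcna5, Kcne1, Trpm4, Trpv2, Trpv4 and Piezo2. A gene is called below where the authors' adjusted p was under 0.05, and 52 of the 61 genes were called in at least 1 comparison. Among the other 9 were Cacna1i, Kcnab3, Kcnip2, Kcnk6, Kcnmb4, Kcnv2, Piezo1 and Trpm3. Levels are in FPKM (reads per kilobase of gene and per megaread of the library) as the authors deposited them, and the totals behind them were 14.7 to 17.7 megareads a library. Counts were on record in all 8 libraries for 45 of the 61 genes, and their median level was 2.08 FPKM, against 14.8 FPKM over all 6582 such genes. Thus 33 of the 45 (73.3%) averaged over 1 FPKM, against 94.7% of all such genes. The channel genes were also longer, with a median length of 3884 bases against 2439 bases. The exact permutation test of 2 against 2 libraries cannot give a p under 0.333, so single genes were judged by fits across all genes.

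Ischemia DMSO was set against normoxia DMSO to show what the ischemic condition did without eugenol. Sodium and calcium channel genes fell in all but 1 of their called members, potassium channel genes split evenly, and the HCN, chloride and TRP genes rose in all but 1 of theirs. Of the 51 channel genes listed, 42 were called (82.4%), against 87.2% of all 7694 listed genes and 40.9% of the 16406 genes the authors adjusted over. Of these, 20 were higher and 22 lower in ischemia DMSO, against 42% higher and 45.3% lower of all listed genes, so that 47.6% of the calls were rises, against 48.1% over all genes. The counts by class were 11 higher and 11 lower of 26 listed potassium channel genes, 0 higher and 4 lower of 6 sodium channel genes, 1 higher and 6 lower of 7 calcium channel genes, and 8 higher and 1 lower of 12 others. The median log2 fold change of the listed genes was 0.62 for potassium, -1.35 for sodium, -1.08 for calcium and 0.58 for other channel genes, against -0.27 over all listed genes. Calls with a change of at least 2-fold made up 25 of the 51 listed channel genes (49.0%), against 34.9% of all listed genes. Channel genes were also weaker, with a median of 2.08 FPKM against 14.8 FPKM over all genes with counts in all 8 libraries. The part of level and of the p cut in this share, here and in the pairs below, was not tested. The libraries of the 2 groups did not overlap in any of the 42, which was so for 99.9% of all called genes. In the edgeR refit with all 4 libraries, 25 of the 51 listed channel genes were called higher, and 97.8% of all 7694 listed genes were called in either direction. In each refit without a library, the group left with 1 library is assumed to vary like the other group. In each such refit of an ischemia group against a normoxia group, fewer of all listed genes were called as well.

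**Figure D1:**
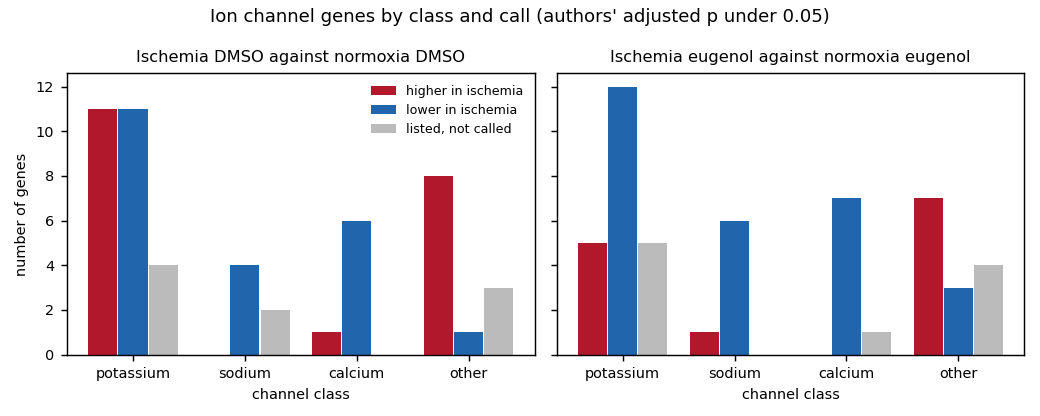
Number of channel genes (y axis) by class (x axis) that the authors' adjusted p under 0.05 called higher (red) or lower (blue) in ischemia, or that were listed and not called (grey). The left panel is ischemia DMSO against normoxia DMSO, where potassium channel genes stand at 11 higher and 11 lower, and the right panel is ischemia eugenol against normoxia eugenol, where they stand at 5 higher and 12 lower.

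**Figure D2:**
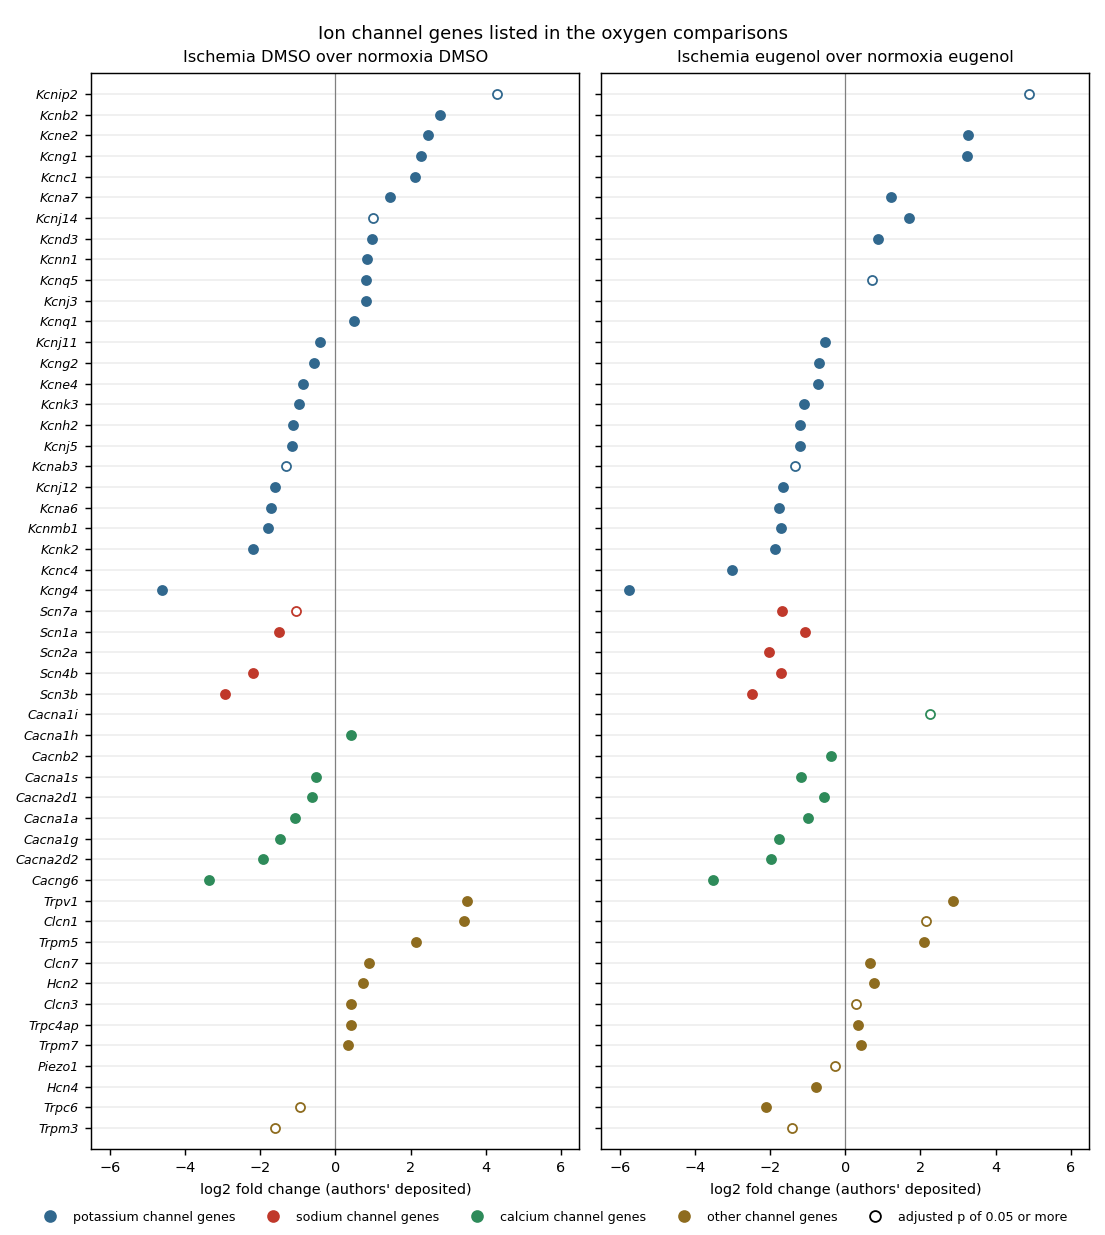
Log2 fold changes of 51 of the channel genes listed in either oxygen comparison, as the authors deposited them. Each row is a gene, the x axis is ischemia over normoxia on the log2 scale, colours give the class and filled points are called genes. Kcng4 lies farthest to the left in both panels, at -4.62 with DMSO and -5.76 with eugenol.

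Sodium channel genes fell wherever they were called in ischemia DMSO, which was so for 4 of the 6 listed. Among them were Scn3b and Scn4b, accessory beta subunits that attach to the pore and shape its gating and surface level. Scn3b, the beta3 subunit, had 1.35 and 1.57 FPKM in ischemia DMSO, against 7.56 and 15.0 FPKM in normoxia DMSO, a log2 fold change of -2.95 with an adjusted p of 3.72e-08 in the authors' deposited table. The normoxia libraries were far apart from each other, and both were above both ischemia libraries. Scn4b, the beta4 subunit, had 1.13 and 1.22 FPKM in ischemia DMSO, against 6.83 and 3.94 FPKM in normoxia DMSO, with a log2 fold change of -2.20 and an adjusted p of 8.13e-13 in the authors' deposited table. Here too the normoxia libraries differed, the first being the higher, but without overlap with ischemia.

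The sodium pores best known from nerve cells were weak in these libraries. Scn1a had 51 and 63 reads in ischemia DMSO, against 181 and 131 reads in normoxia DMSO, and fell with a log2 fold change of -1.49 and an adjusted p of 1.38e-04 in the authors' deposited table. Scn7a, an atypical channel that senses extracellular sodium, had 34 and 25 reads in ischemia DMSO, against 51 and 67 reads in normoxia DMSO, with an adjusted p of 0.0890 in the authors' deposited table, so it was not called. Scn2a had no row in this comparison.

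Calcium channel genes fell for the pore Cacna1g and for several accessory subunits, with Cacna1h as the exception. Cacna1g (ENSRNOG00000060528, chromosome 10, 82129506 to 82197848 on the minus strand) encodes a T-type pore that opens at low voltage and is prominent in the young heart and in pacemaker tissue. It had 16.1 and 16.0 FPKM in ischemia DMSO, against 41.9 and 47.6 FPKM in normoxia DMSO. The ischemia libraries were nearly equal and lay far below normoxia, and the log2 fold change was -1.48 with an adjusted p of 8.82e-44 in the authors' deposited table and -1.48 ± 0.0943 (SE) in the edgeR refit. Cacna1h (ENSRNOG00000033893, chromosome 10, 14730941 to 14788617 on the minus strand) encodes the other T-type pore of the heart and had 28.4 and 28.3 FPKM in ischemia DMSO, against 21.9 and 20.5 FPKM in normoxia DMSO. It rose without overlap, with a log2 fold change of 0.42 and an adjusted p of 1.79e-04 in the authors' deposited table. Per gene length, then, Cacna1g was the more abundant of these T-type pores in normoxia DMSO and Cacna1h in ischemia DMSO. Cacna1h overlaps the gene Tpsg1 in RefSeq, and since no source used here says whether counting used strand, reads of the overlap cannot be assigned to either.

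Further pore genes fell, at lower levels. Cacna1s, the L-type pore of skeletal muscle, had 409 and 405 reads in ischemia DMSO, against 566 and 558 reads in normoxia DMSO, a log2 fold change of -0.51 with an adjusted p of 0.00882 in the authors' deposited table. Cacna1a, the P/Q-type pore of nerve endings, had 180 and 191 reads in ischemia DMSO, against 396 and 362 reads in normoxia DMSO, with a log2 fold change of -1.08 and an adjusted p of 5.50e-06 in the authors' deposited table. Neither gene overlapped between the groups, as for 99.9% of all called genes. The call of Cacna1s was lost without the first ischemia DMSO library (adjusted p = 0.0541 in the edgeR refit).

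Among the accessory subunits, Cacna2d2, an alpha2delta subunit that brings pores to the surface, had 5.59 and 6.64 FPKM in ischemia DMSO, against 23.2 and 23.0 FPKM in normoxia DMSO. This fall was several times the spread within either group (log2 fold change -1.93, adjusted p 1.51e-42 in the authors' deposited table). Its relative Cacna2d1, the alpha2delta subunit most used by the cardiac L-type channel, had 15.1 and 14.8 FPKM in ischemia DMSO, against 22.1 and 23.5 FPKM in normoxia DMSO. It fell less, by 0.62 on the log2 scale in the authors' deposited table, with an adjusted p of 4.15e-06. Cacng6, a gamma subunit of striated muscle, had 18 and 22 reads in ischemia DMSO, against 248 and 156 reads in normoxia DMSO. It had the deepest fall of the calcium channel genes, with a log2 fold change of -3.38 and an adjusted p of 1.53e-15 in the authors' deposited table.

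**Figure D3:**
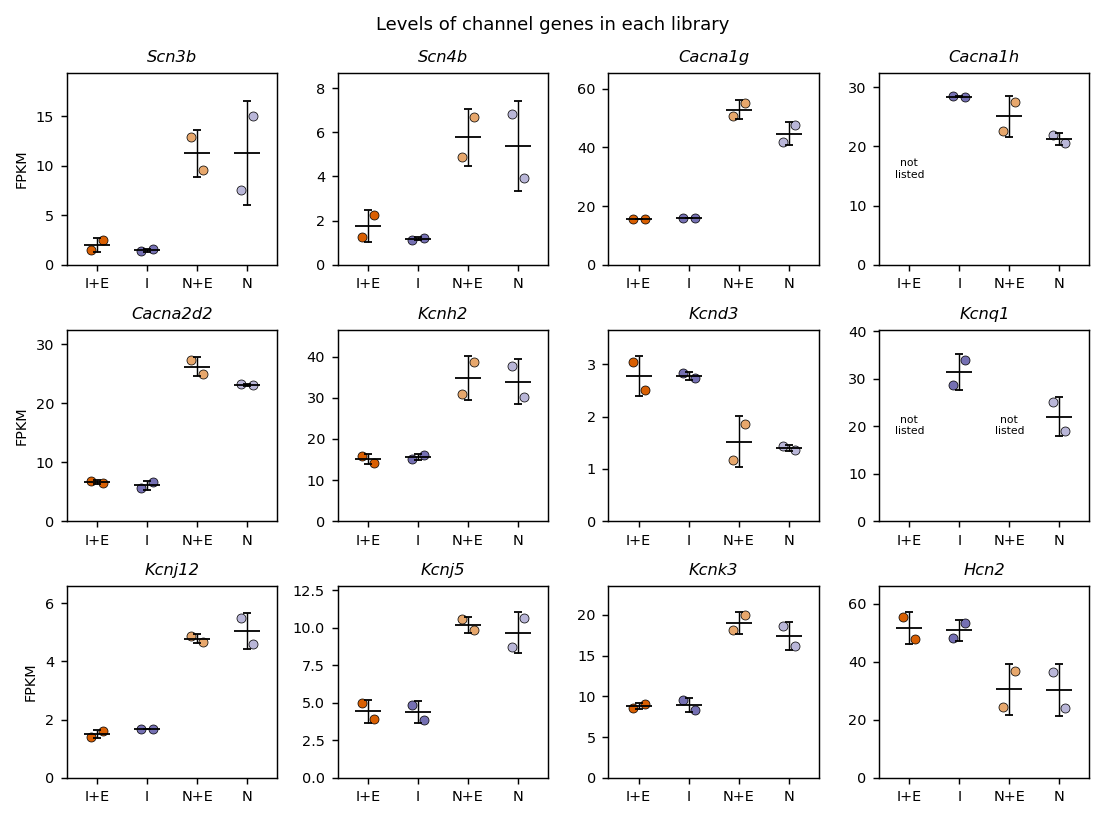
FPKM (y axis, from 0) of 12 channel genes in each library, as the authors deposited them. On the x axis, I+E is ischemia eugenol, I ischemia DMSO, N+E normoxia eugenol and N normoxia DMSO; points are libraries, the wide bar is the mean of 2 libraries, the whiskers are the SD, and "not listed" marks a group without a row. Cacna1g stands near 16 FPKM in ischemia and above 41 FPKM in normoxia, and Cacna1h in ischemia DMSO stands above every normoxia library.

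Potassium channel genes that fell included those of repolarisation and of the resting potential. Kcnh2 (ENSRNOG00000009872, chromosome 4, 7355574 to 7387253 on the plus strand), the pore of the rapid delayed rectifier that ends the action potential, had 15.2 and 16.1 FPKM in ischemia DMSO, against 37.8 and 30.1 FPKM in normoxia DMSO. The groups lay well apart, and the log2 fold change was -1.12 with an adjusted p of 2.34e-15 in the authors' deposited table and -1.12 ± 0.117 (SE) in the edgeR refit. Kcnj12, an inward rectifier pore that helps to hold the resting potential, had 1.66 and 1.66 FPKM in ischemia DMSO, against 5.48 and 4.62 FPKM in normoxia DMSO (log2 fold change -1.61, adjusted p 2.26e-06 in the authors' deposited table). Kcnk3, an acid-sensitive tandem-pore channel, had 9.49 and 8.31 FPKM in ischemia DMSO, against 18.6 and 16.1 FPKM in normoxia DMSO (log2 fold change -0.97, adjusted p 2.59e-10 in the authors' deposited table). Kcnk2, a tandem-pore channel opened by stretch and lipids, had 62 and 31 reads in ischemia DMSO, against 213 and 198 reads in normoxia DMSO, the deeper fall of these tandem-pore genes (log2 fold change -2.21, adjusted p 2.23e-09 in the authors' deposited table). None of these 4 genes overlapped between the groups, as for 99.9% of all called genes.

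The subunits of the acetylcholine-activated potassium channel, which Kcnj3 and Kcnj5 form together, moved in opposite directions. Kcnj5 had 416 and 294 reads in ischemia DMSO, against 691 and 821 reads in normoxia DMSO, and fell with a log2 fold change of -1.15 and an adjusted p of 5.02e-09 in the authors' deposited table. Kcnj3 had 245 and 228 reads in ischemia DMSO, against 152 and 109 reads in normoxia DMSO, and rose with a log2 fold change of 0.81 and an adjusted p of 0.00879 in the authors' deposited table. Kcnj11, the pore of the ATP-sensitive channel that opens when cell energy is low, had 527 and 516 reads in ischemia DMSO, against 741 and 612 reads in normoxia DMSO. Its fall was small, with a log2 fold change of -0.42 and an adjusted p of 0.0296 in the authors' deposited table. In edgeR refits the calls of Kcnj3 and Kcnj11 were lost when the first or the second ischemia DMSO library was left out (adjusted p 0.0569 and 0.0690 for Kcnj3, 0.148 and 0.0657 for Kcnj11), that of Kcnj11 also without the first normoxia DMSO library (adjusted p 0.0709) and under DESeq2 size factors (0.141).

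The pore of the slow delayed rectifier and a listed pore of the transient outward current rose. Kcnq1, the slow delayed rectifier pore, had 28.6 and 34.0 FPKM in ischemia DMSO, against 25.0 and 19.1 FPKM in normoxia DMSO (log2 fold change 0.50, adjusted p 0.00212 in the authors' deposited table). Kcnd3, a transient outward pore that shapes early repolarisation, had 2.84 and 2.73 FPKM in ischemia DMSO, against 1.44 and 1.36 FPKM in normoxia DMSO (log2 fold change 0.99, adjusted p 1.02e-04 in the authors' deposited table). Both genes stood higher in both ischemia libraries, and Kcnq1 lost its call in the edgeR refit without the second ischemia DMSO library (adjusted p 0.179). The Kcne genes, small accessory subunits of these pores, split: Kcne2 had 74 and 41 reads in ischemia DMSO, against 10 and 10 reads in normoxia DMSO, and Kcne4, known as an inhibitor of Kcnq1, had 123 and 104 against 211 and 191 reads. The log2 fold changes were 2.46 (adjusted p 6.03e-04) for Kcne2 and -0.88 (adjusted p 0.00528) for Kcne4 in the authors' deposited table. Kcnip2, the calcium-binding accessory subunit of Kcnd3, had 103 and 4 reads in ischemia DMSO, against 4 and 1 reads in normoxia DMSO, so that a single library made its log2 fold change of 4.31, which was not called (adjusted p 0.0638 in the authors' deposited table).

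The Kcng genes encode silent subunits, which form no channel alone and alter the Kcnb pores they join, and they held both rises and falls. Kcng4 (ENSRNOG00000015746, chromosome 19, 52270927 to 52282877 on the minus strand) had 4 and 1 reads in ischemia DMSO, against 65 and 53 reads in normoxia DMSO, the deepest fall of all listed channel genes, with a log2 fold change of -4.62 and an adjusted p of 7.16e-07 in the authors' deposited table and -4.61 ± 0.529 (SE) in the edgeR refit. Kcng1 had 83 and 77 reads in ischemia DMSO, against 16 and 16 reads in normoxia DMSO, and rose with a log2 fold change of 2.27 and an adjusted p of 6.27e-05 in the authors' deposited table. Kcng2, the most abundant potassium channel gene listed, had 54.6 and 57.0 FPKM in ischemia DMSO, against 91.3 and 72.5 FPKM in normoxia DMSO, and fell by 0.56 on the log2 scale in the authors' deposited table (adjusted p 7.99e-05). Kcnb2, a pore that such subunits join, had 19 and 17 reads in ischemia DMSO, against 1 and 4 reads in normoxia DMSO (log2 fold change 2.79, adjusted p 0.0458 in the authors' deposited table), and its call, like that of Kcng2, was lost in an edgeR refit without the first ischemia DMSO library (adjusted p 0.0537 for Kcnb2 and 0.0668 for Kcng2).

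Other called potassium channel rises rested on few reads. Kcnc1, a fast pore of nerve cells, had 24 and 30 reads in ischemia DMSO, against 5 and 7 reads in normoxia DMSO, and Kcna7, a pore of striated muscle, had 90 and 66 against 33 and 22 reads. Kcnn1, a calcium-activated channel, had 215 and 194 against 96 and 126 reads, and Kcnq5, a relative of Kcnq1, had 159 and 132 against 80 and 79 reads. All 4 stood higher in both ischemia DMSO libraries, with log2 fold changes of 2.13 (Kcnc1), 1.45 (Kcna7), 0.83 (Kcnn1) and 0.82 (Kcnq5) in the authors' deposited table. The remaining falls were Kcna6, a pore of nerve cells, with 17 and 13 reads in ischemia DMSO, against 35 and 60 in normoxia DMSO, and Kcnmb1, the accessory subunit of the large calcium-activated channel in smooth muscle, with 20 and 14 against 46 and 67 reads. Their log2 fold changes were -1.72 (Kcna6, adjusted p 0.0192) and -1.79 (Kcnmb1, adjusted p 0.00685) in the authors' deposited table. Kcnmb1 overlaps Kcnip1 in RefSeq. In at least 1 edgeR refit without an ischemia DMSO library, Kcna6, Kcna7, Kcnb2, Kcnc1, Kcng2, Kcnj11, Kcnj3, Kcnn1, Kcnq1 and Kcnq5 lost the call. Fewer of all listed genes were called in those refits as well.

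**Figure D4:**
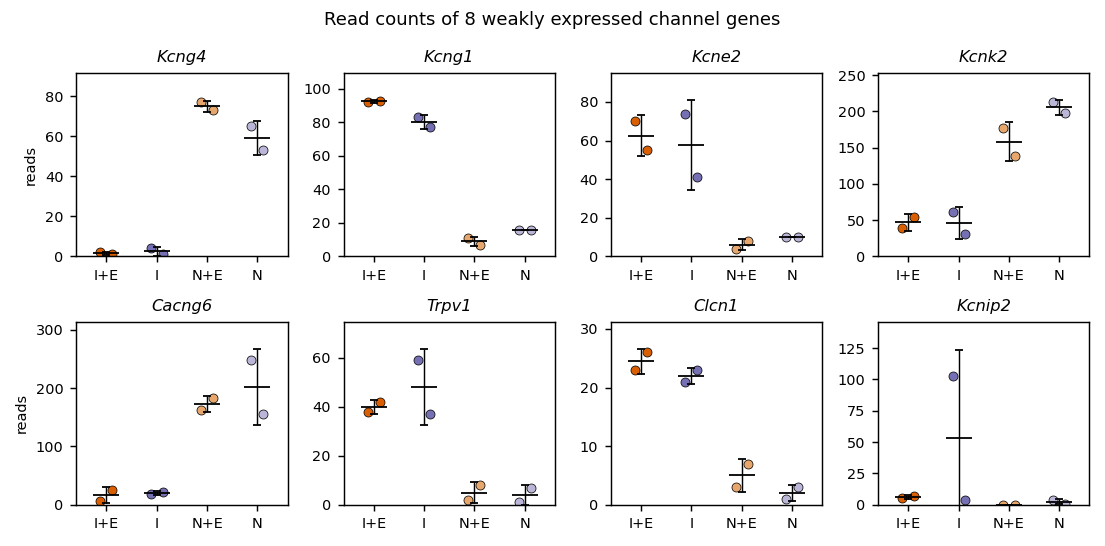
Reads (y axis, from 0) of 8 weakly expressed channel genes in each library. I+E is ischemia eugenol, I ischemia DMSO, N+E normoxia eugenol and N normoxia DMSO; points are libraries, the wide bar is the mean of 2 libraries and the whiskers are the SD, not drawn below 0. Kcng4 has 1 to 4 reads in each ischemia library and 53 to 77 in each normoxia library, whereas the 103 reads of Kcnip2 come from a single ischemia DMSO library.

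Of the 9 called HCN, chloride and TRP genes, 8 rose. Hcn2, a pacemaker channel that is also present in ventricle, had 48.3 and 53.4 FPKM in ischemia DMSO, against 36.6 and 24.1 FPKM in normoxia DMSO. Its normoxia libraries differed widely, and the rise was called with a log2 fold change of 0.74 and an adjusted p of 0.0393 in the authors' deposited table. Clcn7, the lysosomal exchanger, had 23.6 and 23.7 FPKM in ischemia DMSO, against 12.2 and 13.1 FPKM in normoxia DMSO, a clearer separation (log2 fold change 0.90, adjusted p 2.26e-09 in the authors' deposited table). Clcn3, its endosomal relative, had 24.9 and 21.0 FPKM in ischemia DMSO, against 17.2 and 16.9 FPKM in normoxia DMSO (log2 fold change 0.43, adjusted p 0.00473 in the authors' deposited table). Clcn1, the chloride channel of skeletal muscle, had only 21 and 23 reads in ischemia DMSO, against 1 and 3 reads in normoxia DMSO (log2 fold change 3.41, adjusted p 0.0101 in the authors' deposited table).

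The TRP genes did not all move in the same direction, though the called genes of the Trpm family all rose. Trpm3 had 14 and 9 reads in ischemia DMSO, against 30 and 37 reads in normoxia DMSO. It was not called (log2 fold change -1.60, adjusted p 0.0631 in the authors' deposited table). Trpm7, a channel fused to a kinase that carries magnesium and is widely expressed, had 24.5 and 26.5 FPKM in ischemia DMSO, against 21.0 and 19.5 FPKM in normoxia DMSO (log2 fold change 0.33, adjusted p 0.0105 in the authors' deposited table). Trpv1, a cation channel opened by heat, capsaicin and also eugenol, had 59 and 37 reads in ischemia DMSO, against 1 and 7 reads in normoxia DMSO, and rose, at few reads (log2 fold change 3.52, adjusted p 1.54e-04 in the authors' deposited table). Trpm5, a calcium-activated channel of taste cells, had 54 and 55 reads in ischemia DMSO, against 16 and 8 reads in normoxia DMSO (log2 fold change 2.14, adjusted p 0.00263 in the authors' deposited table). Both rose without overlap, which was so for 99.9% of all called genes. Trpc6, a cation channel opened by diacylglycerol, had 44 and 52 reads in ischemia DMSO, against 64 and 115 reads in normoxia DMSO, and was not called (adjusted p 0.0797 in the authors' deposited table). Trpc4ap, the ubiquitin ligase adaptor, had 53.1 and 57.2 FPKM in ischemia DMSO, against 44.8 and 38.4 FPKM in normoxia DMSO, a log2 fold change of 0.40 in the authors' deposited table. It overlaps Myh7b in RefSeq. In edgeR refits without an ischemia DMSO library, Clcn3, Hcn2, Trpc4ap and Trpm7 each lost the call in at least 1 case, with adjusted p of 0.0532 to 0.148.

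Ischemia eugenol was set against normoxia eugenol to show what the ischemic condition did in the presence of eugenol, in libraries that the DMSO comparison does not share. Sodium and calcium channel genes were again mostly lower, and called falls outnumbered called rises among potassium channel genes. Of the 51 channel genes listed, 41 were called (80.4%), against 87.4% of all 7526 listed genes and 41.1% of the 16021 genes the authors adjusted over. Of these, 13 were higher and 28 lower in ischemia eugenol, against 41.6% higher and 45.8% lower of all listed genes. Rises were 31.7% of the calls, against 47.6% over all genes. The counts were 5 higher and 12 lower of 22 listed potassium channel genes, 1 higher and 6 lower of 7 sodium channel genes, 0 higher and 7 lower of 8 calcium channel genes, and 7 higher and 3 lower of 14 others. Median log2 fold changes of the listed genes were -0.71, -1.70, -1.09 and 0.36 in the same order, against -0.27 over all listed genes. These medians are not over the same genes as those with DMSO, since each list holds only genes under its own p cut. Calls with a change of at least 2-fold made up 29 of the 51 listed channel genes (56.9%), against 34.1% of all listed genes. None of the 41 overlapped between the groups, as was so for 99.9% of all called genes.

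Both oxygen comparisons listed 44 of the channel genes, 86.3% of each, against 84.7% of the DMSO list and 86.6% of the eugenol list over all genes. All 44 had the same sign in both, as did 99.8% of all 6515 genes listed in both. Called in both were 32 genes, 10 of them higher and 22 lower. They made up 76.2% of the calls with DMSO and 78.0% of those with eugenol, against 85.3% and 87.0% over all genes. The potassium split differs between the comparisons through genes that passed in one and not in the other. Kcnj3, Kcnq1, Kcnn1, Kcnb2 and Kcnc1, called higher with DMSO, were not in the interaction fit given below, which holds only genes with counts in all 8 libraries, so that the difference in the split is not shown by a test. Cacna1g averaged 15.5 ± 0.0230 FPKM in ischemia eugenol and 53.0 ± 3.34 FPKM in normoxia eugenol (SD, n = 2 each; log2 fold change -1.77, adjusted p 3.72e-75 in the authors' deposited table). Its log2 fold change with DMSO was -1.48 in the authors' deposited table. Kcnh2 averaged 15.1 ± 1.26 FPKM in ischemia eugenol and 34.8 ± 5.41 FPKM in normoxia eugenol (SD, n = 2 each; log2 fold change -1.21 in the authors' deposited table). Cacna2d2 averaged 6.64 ± 0.318 FPKM in ischemia eugenol and 26.2 ± 1.66 FPKM in normoxia eugenol (SD, n = 2 each; log2 fold change -1.98 in the authors' deposited table).

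Scn2a and Scn7a were called lower, with 7 and 11 reads in ischemia eugenol, against 42 and 26 reads in normoxia eugenol for Scn2a, and 19 and 26 against 70 and 64 reads for Scn7a. Their log2 fold changes were -2.04 (Scn2a) and -1.70 (Scn7a) in the authors' deposited table. Cacnb2, the beta subunit that carries the cardiac L-type pore to the membrane, was listed here and not with DMSO, with 31.8 and 29.7 FPKM in ischemia eugenol, against 38.7 and 40.6 FPKM in normoxia eugenol (log2 fold change -0.37, adjusted p 0.00649 in the authors' deposited table). Hcn4, the main pacemaker channel of the sinus node, was also listed here and not with DMSO, with 3.16 and 3.87 FPKM in ischemia eugenol, against 6.30 and 5.81 FPKM in normoxia eugenol (log2 fold change -0.79, adjusted p 1.15e-04 in the authors' deposited table). All these groups stood apart without overlap, as for 99.9% of all called genes. In edgeR refits, Cacnb2 lost its call without the second normoxia eugenol library (adjusted p 0.0582), Scn1a without the first ischemia eugenol or the second normoxia eugenol library (0.0885 and 0.208), and Cacnb2, Kcne4, Kcnmb1 and Scn1a under DESeq2 size factors.

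Among potassium channel genes, Kcng4 had 2 and 1 reads in ischemia eugenol, against 77 and 73 reads in normoxia eugenol (log2 fold change -5.76, adjusted p 2.33e-08 in the authors' deposited table). Kcng1 had 92 and 93 reads in ischemia eugenol, against 11 and 7 reads in normoxia eugenol, and Kcne2 had 70 and 55 against 4 and 8 reads. Their log2 fold changes were 3.24 (Kcng1) and 3.26 (Kcne2) in the authors' deposited table, both called. Kcnj14, an inward rectifier, was called with eugenol, with 68 and 75 reads in ischemia eugenol, against 23 and 18 reads in normoxia eugenol (log2 fold change 1.68, adjusted p 0.00343 in the authors' deposited table). With DMSO it was listed at 1.00 and not called (adjusted p 0.0927 in the authors' deposited table). Kcnc4, a fast-inactivating pore, had 1 and 4 reads in ischemia eugenol, against 17 and 20 reads in normoxia eugenol (log2 fold change -3.02 in the authors' deposited table). Kcnj3, Kcnq1, Kcnn1, Kcnb2 and Kcnc1, all called higher with DMSO, had no row in the eugenol comparison. Kcnd3 and Kcnmb1 each lost the call in 1 edgeR refit without a library, with adjusted p of 0.0509 and 0.0706.

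Trpc6 was called lower in ischemia eugenol, with 31 and 20 reads in ischemia eugenol, against 120 and 86 reads in normoxia eugenol (log2 fold change -2.13, adjusted p 1.39e-05 in the authors' deposited table). Trpv1 had 38 and 42 reads in ischemia eugenol, against 2 and 8 reads in normoxia eugenol, and rose again (log2 fold change 2.87, adjusted p 0.00200 in the authors' deposited table). Piezo1, the stretch-activated channel, was listed here at 1147 and 1380 reads in ischemia eugenol, against 1527 and 1310 reads in normoxia eugenol, apart once scaled to library totals but without a call (adjusted p 0.0543 in the authors' deposited table). Cacna1i, another T-type pore, was listed at 23 and 23 against 7 and 2 reads and not called (adjusted p 0.0543 in the authors' deposited table).

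Ischemia eugenol was also set against normoxia DMSO, a pair that changes both the oxygen condition and the treatment and shares libraries with both comparisons above. Of the 48 channel genes listed, 41 were called, 15 higher and 26 lower, against calls for 86.1% of all 7317 listed genes (40.6% higher and 45.5% lower) and for 39.3% of the 16036 genes the authors adjusted over. Calls with a change of at least 2-fold made up 25 of the 48 (52.1%), against 35.5% of all listed genes, and none of the 41 overlapped between the groups, as for 99.9% of all called genes. The counts were 7 higher and 12 lower of 24 potassium, 1 and 5 of 7 sodium, 0 and 6 of 6 calcium, and 7 and 3 of 11 other channel genes. Values of the main members stood close to those of the other pairs: the log2 fold change in the authors' deposited table was -1.54 for Cacna1g, -1.18 for Kcnh2, -5.31 for Kcng4 and 3.30 for Trpv1. Kcnv2, a silent subunit, and Kcnmb4, an accessory subunit of the large calcium-activated channel, were listed in this pair alone and not called. Without the first ischemia eugenol library, calls were lost in the edgeR refit, among them Hcn2, Hcn4 and Kcng2. Fewer of all listed genes were called in that refit as well.

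Eugenol was set against DMSO within each oxygen condition to show whether it changed these genes, and no channel gene was called in either. In ischemia, 3 channel genes were listed, Cacna1s, Hcn4 and Kcnk6, against calls for 8.52% of all 270 listed genes and 0.121% of the 18972 genes the authors adjusted over. Cacna1s had 290 and 297 reads in ischemia eugenol, against 409 and 405 reads in ischemia DMSO, and Hcn4 had 279 and 357 against 462 and 391 reads. Both were lower in both eugenol libraries, with log2 fold changes of -0.42 (Cacna1s) and -0.37 (Hcn4) and adjusted p of 1.00 each in the authors' deposited table. Kcnk6, a tandem-pore channel, had 2 and 16 reads in ischemia eugenol, against 0 and 1 read in ischemia DMSO, and its value rests on a single library. In normoxia, Cacna1g and Cacna1h were listed, against calls for 12.6% of all 207 listed genes and 0.181% of the 14362 genes the authors adjusted over. Cacna1g had 50.6 and 55.3 FPKM in normoxia eugenol, against 41.9 and 47.6 FPKM in normoxia DMSO, and Cacna1h had 22.6 and 27.5 against 21.9 and 20.5 FPKM. Both were higher in both eugenol libraries, each by 0.24 on the log2 scale in the authors' deposited table, without a call.

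The 45 channel genes with counts in all 8 libraries were also fitted with edgeR over all 4 groups and 6582 genes, so that genes without a row in the eugenol tables get an interval. No channel gene was called at an adjusted p under 0.05 in ischemia, where 4 had an unadjusted p under 0.05, or in normoxia, where again 4 did. DESeq2's Wald test was run here only on the genes listed in each eugenol pair. It thus covered 3 channel genes in ischemia and 2 in normoxia, called 0 of them, and says nothing of the others. Calls over all genes were 0.0152% in ischemia and 0.0456% in normoxia. The median log2 difference of the 45 genes, eugenol over DMSO, was 0.02 in ischemia and 0.10 in normoxia. For the 44 genes with an interval (Kcnip2 had no read in normoxia eugenol), the 95% interval lay within a 2-fold change either way for 29 genes in ischemia and 33 in normoxia. Half-widths on the log2 scale were 0.181 to 2.08 in ischemia (median 0.496) and 0.177 to 1.90 in normoxia (median 0.463), so changes under 2-fold were not detectable for the genes with the wider intervals. Kcnh2, for one, had a log2 difference of -0.05 (95% interval -0.34 to 0.23) in ischemia and 0.04 (95% interval -0.23 to 0.31) in normoxia by this edgeR fit. For Trpv1, which eugenol is known to open, the log2 difference was -0.21 (95% interval -1.14 to 0.72) in ischemia and 0.44 (95% interval -1.47 to 2.34) in normoxia, too wide to place.

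**Figure D5:**
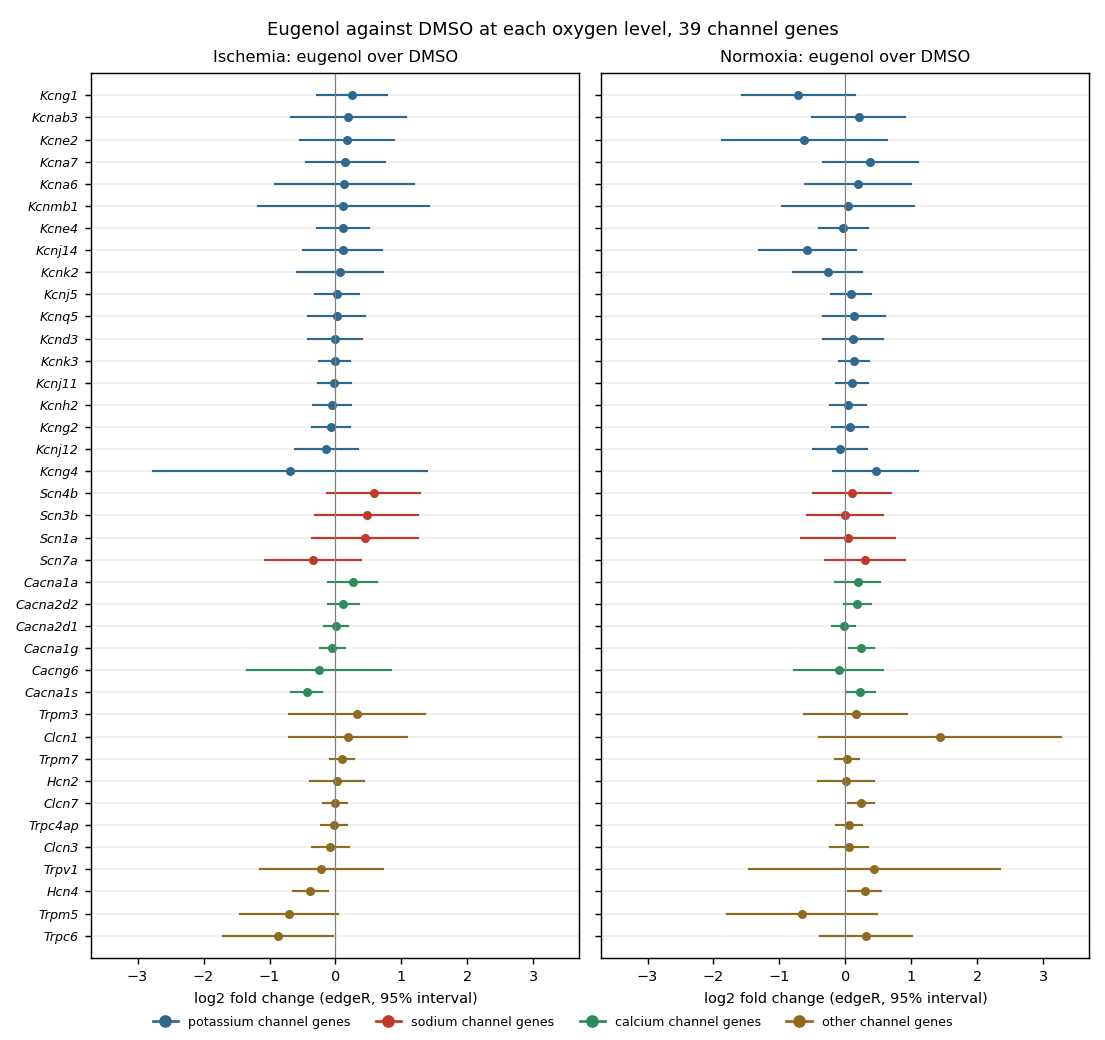
Log2 differences, eugenol over DMSO, of 39 of the 44 channel genes with an interval, in ischemia (left) and normoxia (right), from an edgeR fit of all 8 libraries. Each row is a gene, the x axis is on the log2 scale, points are estimates, bars are 95% intervals and colours give the class. Most bars cross 0, and the widest belong to genes with few reads, such as Kcng4 and Clcn1.

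Whether the effect of ischemia differed between eugenol and DMSO was tested by the interaction in the same edgeR fit. No channel gene was called (0.0152% of all genes were), while 4 had an unadjusted p under 0.05, namely Cacna1s, Hcn4, Cacna1g and Trpc6, and DESeq2's Wald test called 0 as well. Cacna1s, the skeletal L-type pore, gave the smallest p, with an interaction of -0.66 ± 0.148 (SE) on the log2 scale, an unadjusted p of 0.000751 and an edgeR adjusted p of 0.380. Its reads were 290 and 297 in ischemia eugenol, 409 and 405 in ischemia DMSO, 653 and 565 in normoxia eugenol and 566 and 558 in normoxia DMSO. Hcn4 gave an interaction of -0.67 ± 0.168 (SE) with an edgeR adjusted p of 0.614, from 279 and 357 reads in ischemia eugenol, 462 and 391 in ischemia DMSO, 538 and 471 in normoxia eugenol and 451 and 440 in normoxia DMSO. In each gene the ischemia eugenol libraries were the lowest of the 8. The 95% interval of the interaction lay within a 2-fold difference for 23 of 44 genes.

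Genes that work with these channels were examined as a list of 48 partners outside the naming rule. With DMSO, 28 were listed, 7 higher, 20 lower and 1 not called in ischemia DMSO, with a median log2 fold change of -0.69, against 42% higher, 45.3% lower and a median of -0.27 over all listed genes. With eugenol 28 were listed, again 7 higher, 20 lower and 1 not called, with a median of -0.64, against 41.6% higher, 45.8% lower and a median of -0.27 over all listed genes. Of 8 pumps and exchangers that restore the ion gradients, 7 were listed with DMSO and all 7 were called lower, and 8 were listed with eugenol and called lower. Atp1b1, the main beta subunit of the sodium pump, had a log2 fold change of -1.24 in ischemia DMSO over normoxia DMSO, and Slc8a1, the sodium and calcium exchanger, -0.70 in the authors' deposited table. Rrad and Rem1, small GTPases that inhibit calcium channels, were at -2.01 (Rrad) and -2.24 (Rem1) in the same pair. In ischemia eugenol against normoxia eugenol, Rem1 was at -2.41 and Rrad had no row. In ischemia eugenol against normoxia DMSO, Rrad was not called (adjusted p 0.0898 in the authors' deposited table). In ischemia DMSO over normoxia DMSO, Calm2 and Calm3 were at -1.34 (Calm2) and -1.31 (Calm3) in the authors' deposited table. They are calmodulin genes whose protein regulates sodium, calcium and potassium pores. Abcc8, a sulfonylurea receptor that pairs with Kcnj11, was at -1.30, and Cav3, the muscle caveolin that scaffolds several channels, at -1.49 in the authors' deposited table. Rises were seen for Fgf11, an intracellular partner of sodium channels, at 1.77, Orai2, a store-operated calcium entry pore, at 1.54, and Akap9, which anchors kinases to Kcnq1, at 0.98 in the authors' deposited table. No partner was listed in either eugenol against DMSO table.

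Marker genes of the cell types that such cultures can hold moved with oxygen as well. Cardiomyocyte markers were the most abundant of those summed. The summed level of the 7 of 9 cardiomyocyte markers with counts in all 8 libraries was 20829 to 21999 FPKM in ischemia eugenol, 22860 to 23379 FPKM in ischemia DMSO, 40837 to 42834 FPKM in normoxia eugenol and 43399 to 43794 FPKM in normoxia DMSO. That of 6 of 7 smooth muscle and pericyte markers was 854 to 866 FPKM in ischemia eugenol, 927 to 1021 FPKM in ischemia DMSO, 3274 to 3791 FPKM in normoxia eugenol and 3123 to 3850 FPKM in normoxia DMSO. Fibroblast markers (8 of 9) summed to 1382 to 1669 FPKM over the ischemia libraries, against 2750 to 3221 FPKM over the normoxia libraries. Endothelial (4 of 8) and macrophage (5 of 8) markers were also lower in each ischemia library, at 15.0 to 30.7 FPKM, against 42.2 to 90.0 FPKM in the normoxia libraries. No marker used was at 0 in a library, and none of 8 neuronal and glial markers had counts in all 8. Of the 30 markers used, 26 were lower in every ischemia library than in any normoxia library, 2 were higher and 2 overlapped. The higher ones were the fibroblast gene Dcn, with 91.6 to 95.8 FPKM over the ischemia libraries, against 32.8 to 45.4 FPKM over the normoxia libraries, and the pericyte gene Pdgfrb, with 71.4 to 92.1 FPKM over the ischemia libraries, against 47.0 to 54.9 FPKM over the normoxia libraries. Fewer cells of a type and less RNA per cell cannot be told apart in bulk RNA, and the part of these shifts in the channel results was not tested.

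The 300 bases around the transcription start (250 before and 50 after) were read from RefSeq (GRCr8) for the 35 of 61 channel genes with an entry, because many of these genes differed between the oxygen conditions. The core letters that hypoxia-inducible factors bind, ACGTG or GCGTG, were searched on both strands, with a CACGTG palindrome counting as an overlapping ACGTG on each strand. ACGTG was found in 6 of the 35 (17.1%), against 19.7% of all 27457 promoters of this length, and GCGTG in 13 of 35 (37.1%), against 31.1%. By direction in either oxygen comparison at matched treatment, ACGTG stood in 4 of 12 promoters of called rises and 1 of 18 of called falls, and GCGTG in 5 of 12 and 6 of 18. The promoters of Trpm7 and Hcn2, both called higher in both oxygen comparisons, and of Kcne4 and Scn4b, both called lower in both, are shown as a promoter with and one without these letters for each direction, picked after the matches were known. They run 5′ to 3′ in the direction of the gene, with ACGTG and GCGTG of either strand in capitals:
Trpm7, chr3:134588064-134588363, minus strand: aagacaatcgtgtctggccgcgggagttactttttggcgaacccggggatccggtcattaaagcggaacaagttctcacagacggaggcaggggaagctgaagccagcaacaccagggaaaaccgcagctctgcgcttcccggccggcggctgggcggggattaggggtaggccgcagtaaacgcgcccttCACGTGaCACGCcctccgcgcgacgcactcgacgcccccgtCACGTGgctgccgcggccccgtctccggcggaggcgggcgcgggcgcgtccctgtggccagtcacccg
Hcn2, chr7:10639408-10639707, minus strand: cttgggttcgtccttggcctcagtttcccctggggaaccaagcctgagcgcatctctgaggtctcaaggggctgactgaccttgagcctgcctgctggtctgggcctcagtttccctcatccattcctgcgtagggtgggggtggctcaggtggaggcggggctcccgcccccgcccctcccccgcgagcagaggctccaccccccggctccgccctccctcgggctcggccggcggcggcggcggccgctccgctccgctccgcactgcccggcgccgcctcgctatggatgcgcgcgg
Kcne4, chr9:87695798-87696097, plus strand: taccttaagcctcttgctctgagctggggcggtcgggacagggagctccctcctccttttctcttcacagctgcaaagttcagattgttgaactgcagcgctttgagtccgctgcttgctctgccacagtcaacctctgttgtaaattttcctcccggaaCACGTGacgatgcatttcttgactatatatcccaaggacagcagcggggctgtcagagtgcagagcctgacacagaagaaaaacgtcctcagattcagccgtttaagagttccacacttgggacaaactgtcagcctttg
Scn4b, chr8:54343623-54343922, plus strand: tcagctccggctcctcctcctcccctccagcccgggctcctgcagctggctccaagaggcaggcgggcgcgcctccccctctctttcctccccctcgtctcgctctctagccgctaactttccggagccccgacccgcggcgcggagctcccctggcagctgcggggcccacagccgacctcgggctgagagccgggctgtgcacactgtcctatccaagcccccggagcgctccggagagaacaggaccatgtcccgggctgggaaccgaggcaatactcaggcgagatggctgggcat
Trpm7 held 4 ACGTG and 1 GCGTG, Kcne4 held 2 ACGTG, and Hcn2 and Scn4b held none of either. A match is a description of the letters and no evidence of binding, and a window without one says nothing of the factor.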

How the data were processed

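RNA of the 8 libraries was total RNA prepared with an Illumina TruSeq RNA kit and sequenced on a HiSeq 2000, per the labels' protocols. The authors deposited 5 tables, 1 for each pair of groups compared. Read counts per gene were deposited as whole numbers, and HISAT2, StringTie 1.3.3b, edgeR and DESeq2 are named without roles, per the submitters' processing notes. The normalized signal deposited by the authors equals the count divided by 1 size factor per library and table. FPKM values were deposited by the authors, and count, gene length and FPKM gave 1 total per library. The log2 fold changes, p-values and adjusted p-values are the authors' deposited values, each table being cut at an unadjusted p of 0.05. Genome build and use of strand are not given in the sources used here, and coordinates are as deposited. Column codes were matched to groups through the table titles, which allow 1 assignment.

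The main call was the authors' adjusted p under 0.05. A positive log2 fold change means higher in the group named first. Counts were refitted with edgeR 4.0.16 quasi-likelihood per table, scaled to the totals behind FPKM, with p adjusted by Benjamini-Hochberg over the number of genes the authors adjusted, and once over all 4 groups for 6582 genes with counts in all 8 libraries. These genes were preselected by their p, so the refits understate the spread. Alternatives were TMM, DESeq2 1.42.0 size factors and Wald test, a minimum of 5 reads per megaread, an adjusted p under 0.01, a 2-fold minimum, the replicate number as a block, and leaving out each library. Fits were checked on simulated counts. SDs are over 2 libraries and cover counting and library error together. Python 3.11.15, pandas 2.3.3 and R 4.3.3 were used.

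The genes examined, the partner and marker lists and the rule for named genes were chosen with earlier results of these data known. Named were 42 cardiac and stretch channel genes where listed (27 were), and in each pair the largest called rises and falls of each class with at least 20 reads on average in the higher group and no overlap. Others were named after their values were seen. Libraries of a group differed by more than sampling noise, so none was counted as a repeat. Some genes are not reported here by name, and the counts and medians include them.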

Additional observations from a re-analysis of the deposited data

How the results depend on the processing

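Among the channel genes listed in a pair, none changed direction in the settings checked. These genes were listed by their p in the same counts, which made a change of direction unlikely from the start. The check therefore says little of how firm the directions are. It did not cover the fit of 4 groups under TMM or DESeq2 scaling. With an adjusted p under 0.01 the rises in ischemia DMSO against normoxia DMSO numbered 12 in place of 20. With at least a 2-fold change they numbered 9 in that pair, 7 in ischemia eugenol against normoxia eugenol, and 7 in ischemia eugenol against normoxia DMSO. With edgeR on genes of at least 5 reads per megaread they numbered 13, 7 and 8 in the same order. Leaving out each library in turn in the edgeR refit gave 12 to 24 rises and 19 to 25 falls in ischemia DMSO against normoxia DMSO, 13 to 18 and 28 to 31 in ischemia eugenol against normoxia eugenol, and 10 to 17 and 18 to 25 in ischemia eugenol against normoxia DMSO. In the eugenol pairs these refits covered only the listed channel genes, 3 in ischemia and 2 in normoxia, so they could not test the others. In these refits the group left with 1 library is assumed to vary like the other group, and with all libraries the edgeR refit gave 25 and 25, 18 and 32, and 18 and 29. DESeq2's Wald test gave 21 rises and 22 falls, 14 and 28, and 15 and 26 in the same order of pairs. Deviations of same-numbered libraries correlated at -0.246 to 0.110 between groups. The labels do not say whether same-numbered libraries were paired, and these correlations cannot decide it. With the replicate block the fit of 4 groups gave 18 rises and 26 falls with DMSO and 18 and 27 with eugenol, against 18 and 26, and 17 and 27, without it. Crossed numbers, tried after seeing the data, gave 19 rises and 32 falls in ischemia eugenol against normoxia eugenol, against 17 and 31 uncrossed. Scaling moved the median log2 fold change of the 6582 genes in the fit of 4 groups. For ischemia DMSO over normoxia DMSO it was -0.31 with the totals behind FPKM, -0.23 under TMM scaling and -0.08 under DESeq2 scaling. Falls near 0.3 on the log2 scale are not distinct from that shift. The edgeR SE had a median of 0.215 on the log2 scale in ischemia DMSO over normoxia DMSO, and the highest, 1.33, was that of Kcnip2, whose reads came almost all from 1 library.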
